A study of Mus musculus with 16 samples.

Results

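The fibroblast growth factor (FGF) genes described here are 10 mouse genes, the 8 ligands Fgf2, Fgf4, Fgf5, Fgf7, Fgf8, Fgf10, Fgf15 and Fgf17 and the 2 receptors Fgfr1 and Fgfr2. They are 10 of 32089 genes named on the array. Members were chosen by name, as every probe whose target name in the deposited signal table equals one of these symbols, ignoring case. That gave 15 of 46643 probes, with 1 probe for each of 7 genes, 2 each for Fgf10 and Fgfr1, and 4 for Fgfr2. A total of 13 probes of 9 genes were above background on at least 2 arrays and were tested. The Fgf7 probe and 1 Fgfr2 probe were above background on 0 of 16 arrays and are given as levels only.

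Mouse RNA was hybridised to Illumina BeadChips (MouseWG-6 version 1.1), 16 arrays in all, 2 biological replicates per group. Of the 8 groups, 6 were pluripotent: the embryonic stem cells R1 (ES) and the induced pluripotent stem cell (iPS) lines OSCK, OSE T8, OSE T9, OSCE 8 and OSCE 13, of whose names the last 4 hold a # in the labels. The remaining 2 were embryonic fibroblasts (MEFs) with a transgene for green fluorescent protein under the Actin promoter (Actin-GFP MEFs) or the Pou5f1 promoter (Pou5f1-GFP MEFs). Letters in the line names usually denote the reprogramming factors Oct4, Sox2, c-Myc, Klf4 and Esrrb, which the labels do not spell out, and OSCE and OSE lines are referred to as Esrrb lines. ES and iPS cells grew in serum and LIF, a cytokine that holds mouse ES cells undifferentiated, on growth-arrested MEF feeders, so their RNA can hold feeder RNA. MEFs grew in serum medium. Each iPS line stands for itself alone, and neither strain nor animal age is used here.

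FGF ligands bind FGF receptors, which are receptor tyrosine kinases, together with heparan sulfate on the cell surface, and the receptors pass the signal through Frs2 and Ras to the Erk kinases. In mouse ES cells Fgf4 made by the cells themselves is known to drive Erk and to prepare the cells to leave self-renewal. Fgf5 and Fgf8 are known from the embryo after implantation, Fgf5 in the epiblast and Fgf8 in the primitive streak, where gastrulation begins.

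Between 35.5% and 38.8% of all probes were above background (detection p below 0.01) on each array. The lowest signal among probes above background lay between 4.89 and 5.05 on the log2 scale of normalized signal, on which all levels below are given. Levels of different probes are not set against each other. A difference is given as log2 difference ± standard error from a limma fit over all 16 arrays, and a probe was called at a Benjamini-Hochberg adjusted p under 0.05 over 21551 tested probes. P-values measure the spread between biological replicates of the same line. By the array names, ES cells, OSCK, OSCE 8 and both MEFs lay on 2 slides, with replicate 1 on one and replicate 2 on the other, while OSCE 13, OSE T8 and OSE T9 lay on 2 further slides. A comparison between these sets cannot tell slide and group apart. The labels matched the markers of the cells, since 15 of 16 measured pluripotent cell markers were above background on every ES and iPS array against 1 to 4 on the MEF arrays. All 23 fibroblast markers were above background on every MEF array. They were also present on the feeder-grown arrays, with a summed signal of 17453 to 18753 in ES cells and 19493 to 28761 over the iPS lines, against 78670 to 85372 in MEFs.

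Promoters of Fgf4 and Fgf5 are shown because these ligands moved in opposite directions in line OSCE 8, as the values further on give. RefSeq promoters (GRCm38.p6), each spanning the annotated start, were at hand for 6 of the 10 members. Capitals mark exact matches to a GC box (GGGCGG, or CCGCCC on the opposite strand) or to the TATA box sequence TATAAA.
Fgf4, chr7:144861136-144861435, plus strand: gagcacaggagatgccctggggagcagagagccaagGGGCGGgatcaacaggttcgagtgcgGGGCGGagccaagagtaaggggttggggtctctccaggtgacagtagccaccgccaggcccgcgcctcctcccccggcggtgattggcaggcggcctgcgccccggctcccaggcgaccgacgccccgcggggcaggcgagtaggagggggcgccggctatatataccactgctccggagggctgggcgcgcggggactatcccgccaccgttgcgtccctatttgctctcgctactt
Fgf5, chr5:98253934-98254233, plus strand: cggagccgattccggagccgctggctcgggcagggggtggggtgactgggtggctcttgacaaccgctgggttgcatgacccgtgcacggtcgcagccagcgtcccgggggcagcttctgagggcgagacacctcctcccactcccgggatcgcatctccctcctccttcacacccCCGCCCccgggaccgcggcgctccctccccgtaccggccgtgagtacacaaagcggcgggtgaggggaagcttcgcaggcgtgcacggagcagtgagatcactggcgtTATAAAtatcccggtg
The Fgf4 window holds GGGCGG at offsets -214 and -188 from the start, and the Fgf5 window holds it at -74 on the opposite strand and TATAAA at 34. These matches do not overlap. The TATAAA match in Fgf5 lies downstream of the annotated start, where a TATA box is not usually found. The Fgf4 window holds the run tatatata upstream of the start, which the search for TATAAA did not mark. Whether either stretch acts as a TATA box was not tested. Of 32851 promoters of this length, 35.7% hold GGGCGG and 13.6% hold TATAAA on either strand. The other motifs searched on both strands, the POU octamer ATGCAAAT (1.74% of promoters), the Esrrb-type element AAGGTCA (4.72%) and the ETS core CCGGAAG (8.86%), had no match in these windows. Both windows are rich in G and C, at 69.7% in Fgf4 and 68.3% in Fgf5 against a median of 52.7%, with 28 and 29 CpG against a median of 7.

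Fgf4 was above background on all 12 arrays of ES and iPS cells and on none of the 4 MEF arrays. The Fgf4 probe (6550528) read 6.89 and 6.91 in ES cells, 6.85 and 6.63 in OSCK, 4.97 and 5.54 in OSCE 8, 6.72 and 6.32 in OSCE 13, 6.87 and 6.57 in OSE T8, and 6.37 and 5.71 in OSE T9. It read 4.34 and 4.22 in Actin-GFP MEFs and 4.31 and 4.23 in Pou5f1-GFP MEFs. Every ES and iPS array lay above every MEF array, and OSCE 8 lay below all other pluripotent arrays. In bulk RNA, fewer cells that express a gene and less of its RNA per cell cannot be told apart. In MEFs Fgf4 was at least 3.96-fold lower than in ES cells (-2.63 ± 0.19, adjusted p = 1.29e-08). OSCE 8 carried 3.12-fold less than ES cells (-1.64 ± 0.22, adjusted p = 5.63e-05), with differences of -1.92 and -1.37 on the 2 slides that hold both. It also carried 2.80-fold less than OSCK (-1.49 ± 0.22, adjusted p = 0.000221). Among the neighbours in the order of group means, OSCK, OSE T8, OSCE 13 and OSE T9 overlapped in turn, and the 2 MEF types overlapped. In OSE T9 Fgf4 was also lower than in ES cells (-0.86 ± 0.22, adjusted p = 0.0116). That call was lost without OSE T9 replicate 2 (-0.53, adjusted p = 0.149), without ES replicate 1 (-0.88, adjusted p = 0.0528) or without ES replicate 2 (-0.85, adjusted p = 0.0634).

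Fgf15, the mouse counterpart of human FGF19 and an endocrine signal of the gut in the adult, lies next to Fgf4 on chromosome 7. Like Fgf4 it was above background on all 12 pluripotent arrays and on 0 of 4 MEF arrays. The Fgf15 probe (2810369) read 6.09 and 6.77 in ES cells, 6.27 and 6.52 in OSCK, 6.14 and 6.51 in OSCE 8, 6.96 and 6.90 in OSCE 13, 6.34 and 6.67 in OSE T8, 6.05 and 5.88 in OSE T9, and 4.23 to 4.43 on the 4 MEF arrays. No MEF array reached a pluripotent one, and ES cells overlapped OSCK, OSCE 8 and OSE T8. MEFs were at least 2.86-fold lower than ES cells (-2.09 ± 0.17, adjusted p = 5.29e-08). In OSCE 8, where Fgf4 was low, Fgf15 stood at -0.10 ± 0.20 against ES cells (adjusted p = 0.781). The OSE lines were lower than OSCE 13, which shared their slides (-0.70 ± 0.17, adjusted p = 0.00983), a call that was lost without OSCE 13 replicate 1 (-0.67, adjusted p = 0.0804) or replicate 2 (-0.73, adjusted p = 0.0611). On the other side of Fgf4, the FGF gene Fgf3 differed between MEFs and ES cells by -0.10 ± 0.12 (adjusted p = 0.479), and Ccnd1, a cyclin gene beyond Fgf15, was lower in MEFs (-1.15 ± 0.13, adjusted p = 1.36e-06).

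Fgf17, a ligand of the Fgf8 subfamily, was the other member above background in ES cells and on no MEF array. The Fgf17 probe (3130022) read 5.39 and 5.56 in ES cells, 5.97 and 5.69 in OSCK, 5.05 and 4.62 in OSCE 8, 4.55 and 4.51 in OSCE 13, 4.83 and 5.09 in OSE T8, 5.56 and 5.44 in OSE T9, and 4.28 to 4.44 in MEFs. OSCK lay above ES cells and OSE T9 overlapped them, while OSCE 13 lay close to the MEFs. Fgf17 was at least 1.47-fold lower in MEFs than in ES cells (-1.13 ± 0.13, adjusted p = 2.77e-06). It was at least 1.39-fold lower in OSCE 13 than in ES cells (-0.94 ± 0.15, adjusted p = 0.000471). OSCE 8, above background on 1 of 2 arrays, was lower than OSCK (-0.997 ± 0.15, adjusted p = 0.000316). Against ES cells OSCE 8 was also lower (-0.64 ± 0.15, adjusted p = 0.00653), a call lost without ES replicate 2 (-0.56, adjusted p = 0.0655) or OSCE 8 replicate 2 (-0.43, adjusted p = 0.106).

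Fgf5 was above background on all 16 arrays and was highest in OSCE 8. The Fgf5 probe (5270204) read 5.79 and 5.50 in ES cells, 7.07 and 6.66 in OSCK, 9.35 and 9.32 in OSCE 8, 8.47 and 8.26 in OSCE 13, 7.58 and 7.64 in OSE T8, and 6.05 and 5.97 in OSE T9. It read 6.41 and 5.96 in Actin-GFP MEFs and 5.69 and 5.58 in Pou5f1-GFP MEFs. The order of group means ran from OSCE 8 through OSCE 13, OSE T8 and OSCK without overlap, after which Actin-GFP MEFs overlapped OSE T9 and ES cells overlapped Pou5f1-GFP MEFs. In the raw signal, before any correction, Fgf5 stood at 70.9 and 75.3 in ES cells and 565 and 716 in OSCE 8. Against ES cells the difference was 12.9-fold in OSCE 8 (3.69 ± 0.17, adjusted p = 7.22e-10), 6.58-fold in OSCE 13 (2.72 ± 0.17, adjusted p = 2.91e-08), 3.90-fold in OSE T8 (1.96 ± 0.17, adjusted p = 8.2e-07) and 2.34-fold in OSCK (1.22 ± 0.17, adjusted p = 0.000118). OSE T9 did not pass the test (0.36 ± 0.17, adjusted p = 0.156). On their shared slides OSCE 8 exceeded OSCK by 2.27 and 2.66, and OSE T8 exceeded OSE T9 by 1.53 and 1.67. Both differences between lines were called, at 2.47 ± 0.17 (adjusted p = 1.12e-07) and 1.60 ± 0.17 (adjusted p = 2.71e-05). MEFs and ES cells differed by 0.27 ± 0.14 (adjusted p = 0.127), which passed without Actin-GFP MEF replicate 2 (0.38, adjusted p = 0.0321), under median scaling (0.42, adjusted p = 0.0102) and with slide as a fixed block (adjusted p = 0.0443).

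Fgf8 was above background in only OSCE 8, OSCE 13 and OSE T8, on 6 of 16 arrays. The Fgf8 probe (6350504) read 8.48 and 8.50 in OSCE 8, 6.54 and 6.77 in OSCE 13, and 5.93 and 6.29 in OSE T8. Below background it read 4.36 and 4.32 in ES cells, 4.85 and 4.51 in OSCK, 4.54 and 4.35 in OSE T9, and 4.20 to 4.42 on the 4 MEF arrays. The 3 lines above background kept the order they had for Fgf5, with no overlap. Fgf8 was at least 11.7-fold higher in OSCE 8 than in ES cells (4.15 ± 0.15, adjusted p = 6.8e-11), at least 3.28-fold higher in OSCE 13 (2.32 ± 0.15, adjusted p = 4.44e-08) and at least 2.24-fold higher in OSE T8 (1.77 ± 0.15, adjusted p = 7.04e-07). Within slides it was at least 11.5-fold higher in OSCE 8 than in OSCK (3.82 ± 0.15, adjusted p = 3.51e-10) and at least 2.21-fold higher in OSE T8 than in OSE T9 (1.66 ± 0.15, adjusted p = 6.23e-06). Over the 8 group means Fgf5 and Fgf8 correlated at r = 0.966, and over the 6 groups of ES and iPS cells at r = 0.967. Across the same 6 groups Fgf4 correlated with Fgf5 at r = -0.59 and with Fgf8 at r = -0.69. These are descriptions, and the points share arrays, slides and normalization.

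**Figure D1:**
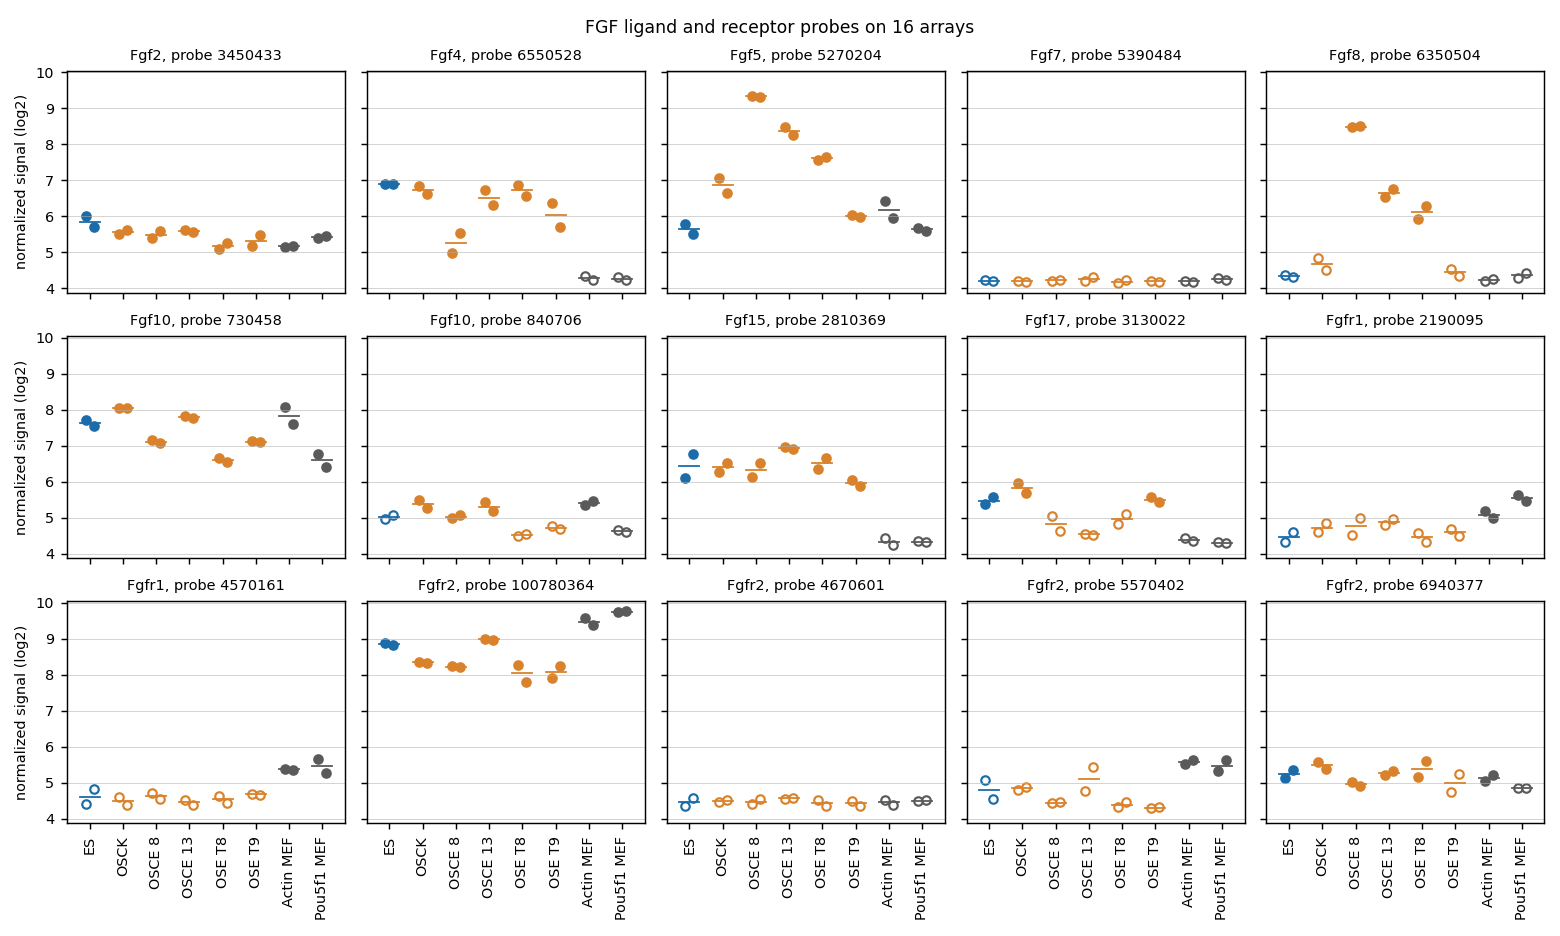
Normalized signal (log2, vertical axis) of all 15 member probes in 8 groups (horizontal axis), with 1 point per array and a line at the mean of the 2 arrays. Filled points are groups above background on both arrays and open points are groups above background on 1 or no array. Fgf5 and Fgf8 stand highest in OSCE 8, Fgf4 stands lowest there among ES and iPS cells, and the Fgfr1 probes are filled only in MEFs.

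**Figure D2:**
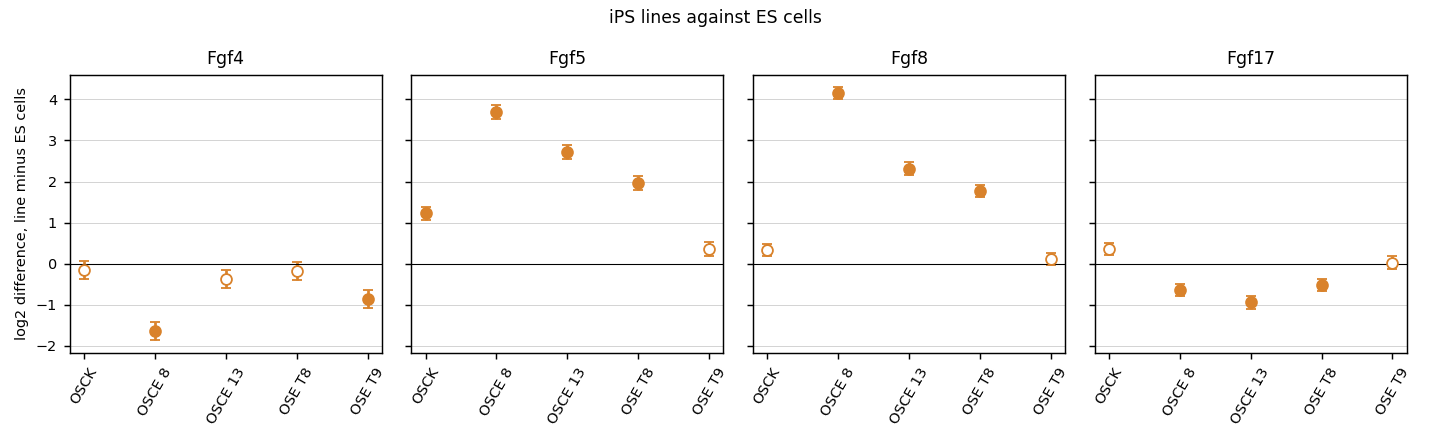
Log2 difference of each iPS line from ES cells (vertical axis) for Fgf4, Fgf5, Fgf8 and Fgf17, as the fitted value ± standard error, with 2 arrays per group. Filled points passed an adjusted p under 0.05. OSCE 8 lies highest for Fgf5 (3.69) and Fgf8 (4.15) and lowest for Fgf4 (-1.64).

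Fgf10, made by mesenchyme and needed in the embryo for limb and lung buds, was measured by 2 probes. The probe 730458 was above background on all 16 arrays and read 7.71 and 7.54 in ES cells, 8.06 and 8.06 in OSCK, 7.15 and 7.07 in OSCE 8, 7.83 and 7.77 in OSCE 13, 6.67 and 6.56 in OSE T8, 7.13 and 7.09 in OSE T9, 8.07 and 7.60 in Actin-GFP MEFs, and 6.77 and 6.41 in Pou5f1-GFP MEFs. The probe 840706 ranged from 4.50 to 5.50 and was above background on both arrays of OSCK, OSCE 8, OSCE 13 and Actin-GFP MEFs. For both probes Actin-GFP MEFs lay wholly above Pou5f1-GFP MEFs, and OSE T8 lay below ES cells. Actin-GFP MEFs exceeded Pou5f1-GFP MEFs by 2.37-fold at 730458 (1.24 ± 0.15, adjusted p = 5.73e-05) and by at least 1.42-fold at 840706 (0.78 ± 0.12, adjusted p = 0.000482). The macrophage marker list moved with this contrast, with a summed signal of 12193 to 12422 in Actin-GFP MEFs and 3469 to 3523 in Pou5f1-GFP MEFs, and its part in the Fgf10 result was not tested. Against OSCE 13 the OSE lines were lower at both probes (-0.94 ± 0.13, adjusted p = 0.000171, and -0.68 ± 0.11, adjusted p = 0.000366). OSCE 8 was lower than OSCK at 730458 (-0.95 ± 0.15, adjusted p = 0.000532). Between MEFs and ES cells the probes disagreed, since 730458 was lower in MEFs (-0.41 ± 0.13, adjusted p = 0.0141) and 840706 stood at 0.01 ± 0.11. That call was lost without ES replicate 1 (-0.33, adjusted p = 0.136), Actin-GFP MEF replicate 2 (-0.30, adjusted p = 0.0535) or Pou5f1-GFP MEF replicate 2 (-0.32, adjusted p = 0.0541), and under median scaling (-0.24, adjusted p = 0.128).

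Fgf2, the basic FGF that is added to human pluripotent cell cultures, varied least among the members that were above background on all 16 arrays. The Fgf2 probe (3450433) read 6.0 and 5.69 in ES cells and between 5.09 and 5.63 on the 10 iPS arrays, and between 5.16 and 5.46 on the 4 MEF arrays. Both ES arrays lay above all others, and from OSCE 13 to Actin-GFP MEFs each group overlapped the next in the order of means. MEFs were 1.46-fold lower than ES cells (-0.55 ± 0.12, adjusted p = 0.00101). OSE T8 was lower than ES cells (-0.67 ± 0.14, adjusted p = 0.00283). Fgf7, the keratinocyte growth factor of mesenchyme, was not above background on any array, and its probe (5390484) read between 4.16 and 4.30 throughout.

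Fgfr1, the receptor through which the epiblast is known to respond to Fgf4, was above background on both arrays of each MEF type and on few pluripotent arrays. The probe 2190095 read 5.18 and 4.98 in Actin-GFP MEFs and 5.63 and 5.45 in Pou5f1-GFP MEFs, against 4.32 and 4.61 in ES cells and 4.33 to 4.99 in the iPS lines, where 1 array each of OSCE 8 and OSCE 13 was above background. The probe 4570161 read 5.38 and 5.36 in Actin-GFP MEFs and 5.66 and 5.27 in Pou5f1-GFP MEFs, against 4.41 and 4.82 in ES cells and 4.38 to 4.71 in the iPS lines, with no ES or iPS array above background. At 4570161 the MEF arrays lay above all others, and at 2190095 only OSCE 8 reached the lowest MEF array. MEFs were at least 1.29-fold higher than ES cells at 2190095 (0.85 ± 0.15, adjusted p = 0.000148) and at least 1.39-fold higher at 4570161 (0.80 ± 0.14, adjusted p = 0.000133). No comparison among ES and iPS cells called either Fgfr1 probe.

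Fgfr2, a receptor for Fgf7 and Fgf10 in epithelia and a receptor of the primitive endoderm in the early embryo, was measured by 4 probes that did not agree. The probe 100780364 was above background on all arrays and read 8.88 and 8.82 in ES cells, 8.35 and 8.34 in OSCK, 8.24 and 8.21 in OSCE 8, 9.01 and 8.97 in OSCE 13, 8.28 and 7.80 in OSE T8, 7.91 and 8.25 in OSE T9, 9.57 and 9.38 in Actin-GFP MEFs, and 9.74 and 9.77 in Pou5f1-GFP MEFs. MEFs lay above all pluripotent arrays, and ES cells and OSCE 13 lay above the other 4 lines. At this probe MEFs exceeded ES cells by 1.70-fold (0.77 ± 0.13, adjusted p = 0.000134), and the OSE lines were 1.90-fold below OSCE 13 (-0.93 ± 0.13, adjusted p = 0.000177). OSE T8 (-0.81 ± 0.15, adjusted p = 0.00149) and OSE T9 (-0.77 ± 0.15, adjusted p = 0.00229) were lower than ES cells, and OSCE 13 stood at 0.14 ± 0.15. The probe 5570402 was above background on all 4 MEF arrays, 1 ES array and 1 OSCE 13 array, and was higher in MEFs (0.71 ± 0.17, adjusted p = 0.00234), a call lost without ES replicate 2 (0.44, adjusted p = 0.0821). The probe 6940377 ranged from 4.76 to 5.59 and stood at -0.25 ± 0.15 between MEFs and ES cells (adjusted p = 0.158). The probe 4670601 read between 4.35 and 4.59, below background throughout. Where on the Fgfr2 transcripts these probes lie is not given in the sources used here.

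The counts of called member probes are read against the share of all tested probes called in the same direction. Between MEFs and ES cells 4 of 13 member probes were higher in MEFs and 5 lower, where 30.6% of all tested probes were higher and 28.7% lower. Their median difference was -0.05, and that of all tested probes -0.01. The 4 that were higher were the 2 Fgfr1 probes and 2 Fgfr2 probes, and the 5 that were lower were the ligands Fgf2, Fgf4, Fgf10, Fgf15 and Fgf17. When each line or MEF type entered as a single mean, a fit chosen after the data were seen, 4 of these 9 calls remained (Fgf4, Fgf15 and both Fgfr1 probes), and Fgf17 had an adjusted p of 0.0516.

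Against MEFs the Esrrb lines had 5 member probes higher and 4 lower, where 33.1% of all tested probes were higher and 34.9% lower. The 5 were Fgf4, Fgf5, Fgf8, Fgf15 and Fgf17 and the 4 were the 2 Fgfr1 probes with Fgfr2 100780364 and 5570402. With each line or MEF type as a single mean, the calls at Fgf5 (adjusted p = 0.0968), Fgf8 (0.111) and Fgf17 (0.0894) were lost. OSCK against MEFs had 8 higher and 4 lower, where 28.8% of all tested probes were higher and 31.6% lower. Among the 8 were Fgf4 (at least 3.55-fold, 2.47 ± 0.19, adjusted p = 2.68e-08), Fgf15 (at least 2.79-fold, 2.06 ± 0.17, adjusted p = 6.5e-08) and Fgf17 (at least 1.89-fold, 1.48 ± 0.13, adjusted p = 1.45e-07). The Fgf8 call among them compares levels below background in both groups. Calls at Fgf8, Fgf10 840706, Fgfr1 2190095 and Fgfr2 6940377 were lost without OSCK replicate 1, at adjusted p = 0.284, 0.143, 0.0554 and 0.103 and log2 differences of 0.21, 0.25, -0.47 and 0.40. The median of all tested probes moved from 0.02 to -0.11 under median scaling for the Esrrb lines against MEFs and from 0.01 to -0.11 for OSCK.

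Against ES cells the 4 Esrrb lines together had 2 member probes higher and 5 lower, where 10.3% of all tested probes were higher and 10.1% lower. The 2 were Fgf5 (2.18 ± 0.13, adjusted p = 1.71e-08) and Fgf8 (2.09 ± 0.12, adjusted p = 7.8e-09). The 5 were Fgf2, Fgf4, Fgf17, Fgf10 730458 and Fgfr2 100780364, from -0.77 ± 0.17 at Fgf4 to -0.45 ± 0.11 at Fgf2. Each of these 5 calls was lost without 1 ES array. Without ES replicate 1 the adjusted p was 0.205 for Fgf2 (-0.30), 0.175 for Fgf10 (-0.38) and 0.0818 for Fgfr2 (-0.49). Without ES replicate 2 it was 0.0569 for Fgf4 (-0.75) and 0.115 for Fgf17 (-0.43). With 1 mean per line as the replicate limma called 0 of the 13, and Fgf5 and Fgf8 had adjusted p-values of 0.707 and 0.802. The 5 iPS lines together had 2 higher and 3 lower, where 10% of all tested probes were higher and 9.96% lower. Fgf5 was higher by 1.99 ± 0.13 and Fgf8 by 1.74 ± 0.11. The count of 5 fell to 2 without ES replicate 1.

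Line by line, OSCK had 1 higher and 1 lower, where 7.56% of all tested probes were higher and 7.79% lower. The lower call, at Fgfr2 100780364 (-0.50 ± 0.15, adjusted p = 0.0371), was lost without either OSCK array, either ES array or either Pou5f1-GFP MEF array, at adjusted p-values between 0.0507 and 0.161. OSCE 8 had 2 higher and 4 lower, where 11% of all tested probes were higher and 11.1% lower. The 4 were Fgf4, Fgf10 730458, Fgf17 and Fgfr2 100780364, and without OSCE 8 replicate 2 the calls at the last 3 were lost (Fgf10 -0.47, adjusted p = 0.134, Fgf17 -0.43, adjusted p = 0.106, and Fgfr2 -0.61, adjusted p = 0.0515). Fgf10 was also lost without ES replicate 1 (-0.43, adjusted p = 0.164) or OSCE 8 replicate 1 (-0.56, adjusted p = 0.0739), and Fgfr2 without ES replicate 1 (-0.59, adjusted p = 0.0541). OSCE 13 had 2 higher (Fgf5 and Fgf8) and 1 lower (Fgf17), where 8.75% of all tested probes were higher and 8.57% lower. OSE T8 had 2 higher (Fgf5 and Fgf8) and 5 lower (Fgf2, both Fgf10 probes, Fgf17 and Fgfr2 100780364), where 9.6% of all tested probes were higher and 9.54% lower. Its call at Fgf17 (-0.51 ± 0.15, adjusted p = 0.0277) was lost without either ES array or OSE T8 replicate 1, at adjusted p-values between 0.054 and 0.194, and that at Fgf10 840706 (-0.49 ± 0.12, adjusted p = 0.0104) without ES replicate 2 (adjusted p = 0.0832) or OSE T8 replicate 1 (adjusted p = 0.0606). OSE T9 had 0 higher and 4 lower (Fgf2, Fgf4, Fgf10 730458 and Fgfr2 100780364), where 9.6% of all tested probes were higher and 8.74% lower. The OSE T9 count fell to 2 without ES replicate 1, OSE T9 replicate 1 or OSE T9 replicate 2. Its Fgf10 call (-0.51 ± 0.15, adjusted p = 0.0307) was lost without any of the 4 arrays compared, and its Fgf2 call (-0.52 ± 0.14, adjusted p = 0.0151) without ES replicate 1 (-0.37, adjusted p = 0.161) or OSE T9 replicate 1 (-0.38, adjusted p = 0.106).

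Between lines that shared slides, OSCE 8 against OSCK had 2 higher and 4 lower, where 7.38% of all tested probes were higher and 7.78% lower. Its call at Fgfr2 6940377 (-0.53 ± 0.17, adjusted p = 0.0498) lay at the threshold and was lost without either array of OSCK, OSCE 8, OSCE 13, ES cells or either MEF type, at adjusted p-values between 0.0547 and 0.269. The OSE lines against OSCE 13 had 1 higher (Fgf17, at least 1.17-fold, 0.70 ± 0.13, adjusted p = 0.00175) and 7 lower, where 9.2% of all tested probes were higher and 8.93% lower. The call at Fgfr2 5570402 (-0.76 ± 0.17, adjusted p = 0.00621) was lost without OSCE 13 replicate 2 (-0.43, adjusted p = 0.172). OSE T8 against OSE T9 had 2 higher (Fgf5 and Fgf8) and 2 lower (Fgf10 730458 and Fgf17), where 4.9% of all tested probes were higher and 6.1% lower. The 2 lower calls (-0.50 ± 0.15, adjusted p = 0.0498, and -0.54 ± 0.15, adjusted p = 0.0335) were each lost without any of the 4 arrays of these lines, and the first without any array of ES cells, OSCK, OSCE 8 or OSCE 13, at adjusted p-values between 0.0503 and 0.225. Actin-GFP against Pou5f1-GFP MEFs had 3 higher and 0 lower, where 4.81% of all tested probes were higher and 5.63% lower. The 3 were both Fgf10 probes and Fgf5 (0.55 ± 0.17, adjusted p = 0.0476), whose call was lost without Actin-GFP MEF replicate 1 (0.33, adjusted p = 0.424), without either Pou5f1-GFP MEF array, or without any array of the 4 Esrrb lines.

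With slide as a random block, or as a fixed block where that could be fitted, no call at a member was lost, and some were gained. The fixed block covered only comparisons between groups that shared slides. It cannot tell whether calls between the slide sets would remain. In OSCK minus ES cells both Fgf10 probes passed, 730458 at 0.43 (adjusted p from 0.0744 to 0.0286 and 0.0211) and 840706 at 0.37 (from 0.0557 to 0.0325 and 0.0409). Fgf4 passed in OSE T8 minus OSE T9, at 0.68 (from 0.0577 to 0.0222 and 0.011). Also gained under both blocks were Fgf10 840706 in OSCE 8 minus OSCK (-0.36), Fgf2 in the OSE lines minus OSCE 13 (-0.34) and Fgf2 in OSCK minus MEFs (0.28).

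**Figure D3:**
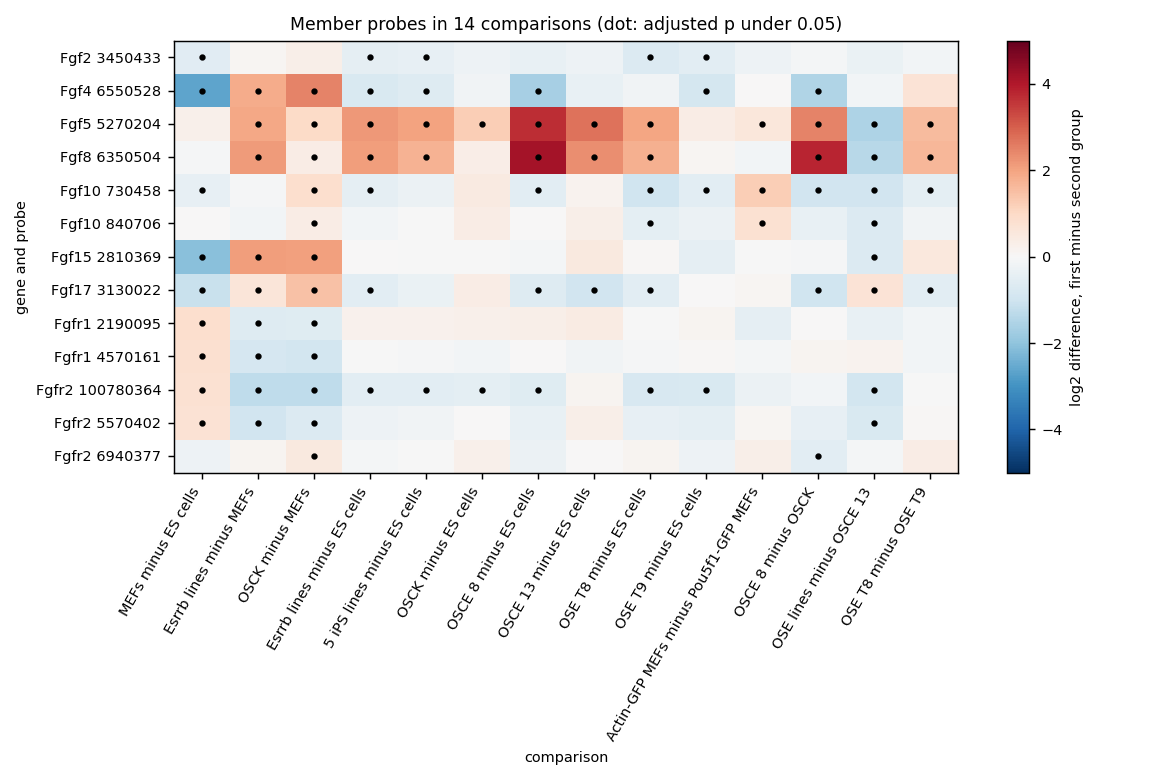
Log2 difference (colour, first minus second group) of the 13 tested member probes (rows) in 14 comparisons (columns), with a dot where the adjusted p was under 0.05. Fgf5 and Fgf8 are red with a dot in OSCE 8, OSCE 13 and OSE T8 minus ES cells, have no dot in OSE T9 minus ES cells and are blue in the OSE lines minus OSCE 13, and the Fgfr1 rows carry dots only in the 3 comparisons with MEFs on 1 side and pluripotent cells on the other.

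Further FGF genes were few above background. Of 17 other ligands and receptors measured, 8 were tested. Fgf1 and the receptor Fgfr4 were above background on 0 of 16 arrays. Fgfr3, above background on 5 arrays, differed between MEFs and ES cells by 0.05 ± 0.14 (adjusted p = 0.782). In MEFs 5 of the 8 were higher than in ES cells and 0 lower, led by Fgf21, a metabolic hormone (at least 3.19-fold, 2.34 ± 0.11, adjusted p = 7.9e-11), and Fgf13, an intracellular family member (2.23-fold, 1.16 ± 0.11, adjusted p = 2.52e-07). Fgfrl1, a receptor-like protein without a kinase (0.59 ± 0.14, adjusted p = 0.00183), and Fgf9 (0.48 ± 0.16, adjusted p = 0.0153) followed. The 8 had a median of 0.41 against -0.01 for all tested probes, of which 30.6% were higher and 28.7% lower. In the Esrrb lines 1 of the 8 was higher than in ES cells, Fgf13 (2.73-fold, 1.45 ± 0.10, adjusted p = 6.2e-08), and 0 were lower, with a median of 0.12 against 0.01. Of all tested probes 10.3% were higher and 10.1% lower in that comparison. Fgf13 read 5.77 in ES cells, 6.53 to 8.22 in the Esrrb lines and 6.42 in OSCK.

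The next list joins co-receptors and heparan sulfate proteoglycans with the enzymes that make or trim heparan sulfate. Most of its genes were higher in MEFs. Of 25 tested, 23 were higher in MEFs than in ES cells and 1 lower, with a median of 0.93, beside 30.6% and 28.7% of all tested probes. The proteoglycan Gpc3 (10.3-fold, 3.37 ± 0.11, adjusted p = 1.41e-12), the adhesion proteins Flrt3 (4.44-fold, 2.15 ± 0.11, adjusted p = 1.98e-10) and Ncam1 (3.96-fold, 1.98 ± 0.14, adjusted p = 7.83e-09) rose, and the secreted FGF binding protein Fgfbp1 fell (at least 4.74-fold, -2.92 ± 0.14, adjusted p = 1.21e-10). In the Esrrb lines 4 were higher and 5 lower than in ES cells, with a median of -0.02, beside 10.3% and 10.1% of all tested probes. Gpc3 was 3.54-fold higher in these lines (1.82 ± 0.10, adjusted p = 4.19e-09). Gpc3 read 7.48 in ES cells, 8.85 to 9.70 in the Esrrb lines and 9.34 in OSCK. Fibroblast markers moved the same way in the Esrrb lines, with 12 of 23 higher and 0 lower, and their part in the Gpc3 result was not tested.

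Genes of the relay behind the receptor were called no more often than all tested probes in MEFs or in the Esrrb lines, each against ES cells. The list covers the path to Erk and, with Pik3r1, the phosphoinositide kinase branch. Of 21 tested relay genes, 5 were higher in MEFs and 3 lower, with a median of 0.00, where 30.6% of all tested probes were higher and 28.7% lower. The docking protein gene Gab1 was lower (6.03-fold, -2.59 ± 0.14, adjusted p = 5.9e-10) and the kinase subunit gene Pik3r1 higher (2.83-fold, 1.502 ± 0.12, adjusted p = 4.34e-08). Between Esrrb lines and ES cells 2 were higher and 2 lower, with a median of 0.04, beside 10.3% and 10.1% of all tested probes. Map2k1, an Erk kinase, fell by 0.70 ± 0.21 (adjusted p = 0.0298) and the Raf kinase gene Braf rose by 0.60 ± 0.15 (adjusted p = 0.00815). Map2k1 read 7.41 in ES cells, 7.37 in OSCE 13, 6.26 to 6.92 in the other Esrrb lines and 6.84 in OSCK. Braf read 7.13 in ES cells, 7.57 to 7.87 in the Esrrb lines and 8.18 in OSCK. The 5 iPS lines together had 4 relay genes higher than in ES cells and 2 lower, beside 10% and 9.96% of all tested probes.

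Feedback regulators and known target genes of FGF signalling were split. Of 21 tested, 4 were higher in MEFs than in ES cells and 10 lower, with a median of -0.35, beside 30.6% and 28.7% of all tested probes. The ETS factors Etv5 (11-fold, -3.47 ± 0.15, adjusted p = 6.36e-11) and Etv4 (3.51-fold, -1.81 ± 0.12, adjusted p = 6.01e-09) and the AP-1 gene Fosl1 (at least 2.68-fold, -1.78 ± 0.11, adjusted p = 2.59e-09) were lower, and Fos was higher (4.78-fold, 2.26 ± 0.12, adjusted p = 4.03e-10). In the Esrrb lines 1 was higher than in ES cells and 8 lower, with a median of -0.05, beside 10.3% and 10.1% of all tested probes. The immediate early genes Fosl1 (-1.24 ± 0.10, adjusted p = 4.39e-07), Ier3 (-0.98 ± 0.13, adjusted p = 5.53e-05) and Egr1 (-0.86 ± 0.15, adjusted p = 0.000774) and the phosphatase gene Dusp5 (-0.84 ± 0.09, adjusted p = 1.15e-05) were lower. In OSCK, a line without E in its name, 8 were also lower than in ES cells and 0 higher, beside 7.79% and 7.56% of all tested probes. OSCE 8 exceeded OSCK at 6 of the 21 and was lower at 0, with a median of 0.12 against 0.00 for all tested probes, of which 7.38% were higher and 7.78% lower. Those 6 included the Erk phosphatase genes Dusp4 (1.09 ± 0.14, adjusted p = 8.25e-05), Dusp5 (1.02 ± 0.12, adjusted p = 2.65e-05) and Dusp6 (0.89 ± 0.17, adjusted p = 0.00171), which were named after their values were seen. Group means in ES cells, OSCK and OSCE 8 were 8.74, 7.87 and 8.96 for Dusp4. They were 9.69, 8.48 and 9.50 for Dusp5, and 9.33, 9.30 and 10.19 for Dusp6. Other genes of the list had lower means in OSCE 8 than in OSCK, without a call. Means in OSCK and OSCE 8 were 7.78 and 7.28 for Spry4, 8.65 and 8.37 for Etv4, and 9.94 and 9.60 for Etv5. Against ES cells OSCE 8 had 1 of the 21 higher and 3 lower (median -0.15), beside 11% and 11.1% of all tested probes.

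**Figure D4:**
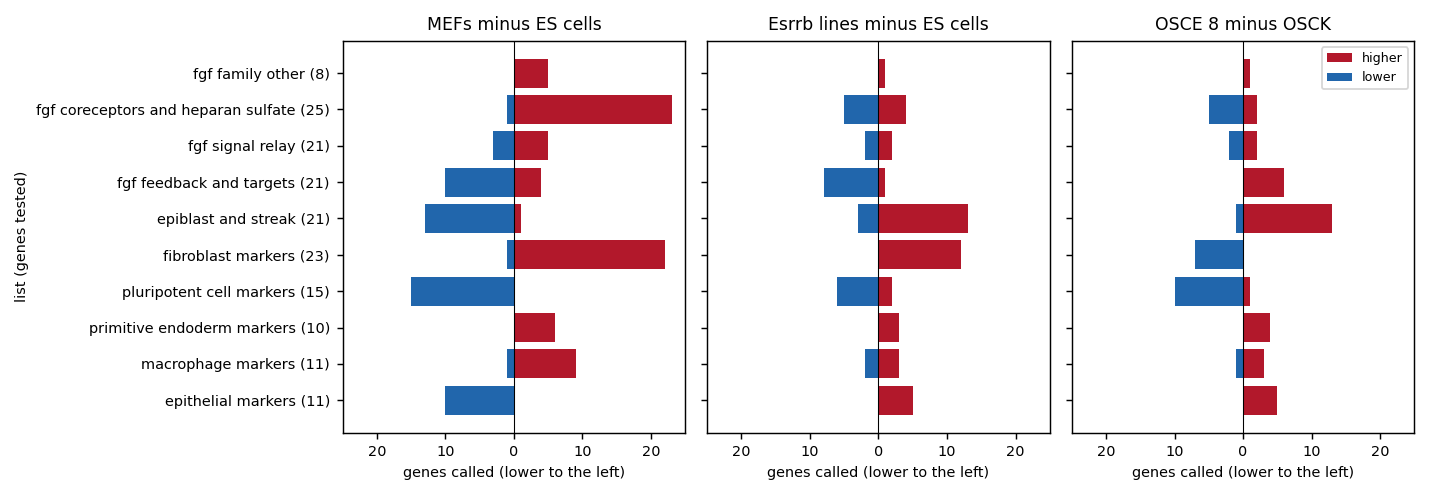
Number of genes called higher (red, to the right) and lower (blue, to the left) for each gene list in 3 comparisons, with the number of genes tested in brackets. Co-receptors and heparan sulfate genes are higher in MEFs (23 of 25, beside 30.6% of all tested probes). Epiblast and streak genes are higher in OSCE 8 than in OSCK (13 of 21, beside 7.38%).

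Epiblast and primitive streak genes, the setting in which Fgf5 and Fgf8 are known in the embryo, were counted as a joint list. Its genes were called more often higher than lower in 4 of the 5 iPS lines. Of 21 tested, 16 were higher in OSCE 8 than in ES cells and 2 lower (median 1.17), 9 higher and 0 lower in OSCE 13 (median 0.34), and 9 higher and 0 lower in OSE T8 (median 0.20). OSCK had 7 higher and 3 lower (median 0.16), and OSE T9 had 4 higher and 5 lower (median -0.16). Of all tested probes 11% were higher and 11.1% lower in OSCE 8, 8.75% and 8.57% in OSCE 13, and 9.6% and 9.54% in OSE T8. These shares were 7.56% and 7.79% in OSCK and 9.6% and 8.74% in OSE T9. The streak transcription factor gene T was below background on both ES arrays, so its folds are bounds. It was at least 112-fold higher than in ES cells in OSCE 8 (adjusted p = 9.3e-14), at least 11.6-fold in OSE T8, at least 4.50-fold in OSCE 13, at least 3.94-fold in OSCK and at least 2.16-fold in OSE T9. All 5 of these differences passed the test, with a largest adjusted p of 7.77e-06. The factor genes Gsc (3.83 ± 0.18, adjusted p = 8.76e-10), Mixl1 (at least 6.89-fold, adjusted p = 9.93e-11) and Eomes (3.10 ± 0.16, adjusted p = 3.61e-09) were also higher in OSCE 8 than in ES cells. These are streak genes, and the epiblast genes of the list moved less or the other way. Group means in ES cells and OSCE 8 were 9.44 and 8.85 for Pou3f1, 13.27 and 13.38 for Dnmt3b, and 8.24 and 8.69 for Otx2. They were 10.26 and 10.07 for Nodal and 11.09 and 10.47 for Lefty1. In MEFs 13 of the 21 were lower than in ES cells and 1 higher, beside 28.7% and 30.6% of all tested probes. The largest differences were at the Nodal inhibitor Lefty2 (at least 53.5-fold lower, adjusted p = 1.42e-14), the DNA methyltransferase gene Dnmt3b (57.5-fold lower, adjusted p = 7.58e-14), Nodal (at least 40.6-fold lower, adjusted p = 3.92e-14) and Lefty1 (47.4-fold lower, adjusted p = 9.72e-14).

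Marker lists of other cell types were counted in OSCE 8 in the same way, where 11% of all tested probes were higher than in ES cells and 11.1% lower. Of 15 tested pluripotent cell markers 2 were higher and 9 lower than in ES cells (median -0.82). Against OSCK 1 was higher and 10 lower, where 7.38% of all tested probes were higher and 7.78% lower. Among the lower was Esrrb itself, named after its value was seen (-2.56 ± 0.11, 5.90-fold lower, adjusted p = 1.13e-09). The summed signal of the pluripotent cell markers was 18697 to 19231 in OSCE 8 against 35016 to 35764 in ES cells. Fibroblast markers were higher at 3 of 23 and lower at 1 in OSCE 8 against ES cells, a share near that of all tested probes, and their summed signal was 19493 to 20599. Primitive endoderm markers were higher at 4 of 10 and lower at 0, macrophage markers were higher at 7 of 11 and lower at 2, and epithelial markers were higher at 5 of 11 and lower at 0. Fgf8 was below background on all 4 MEF arrays, and Fgf4 was as well. What part the changes in these lists have in the values of Fgf4, Fgf5 and Fgf8 was not tested.

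**Figure D5:**
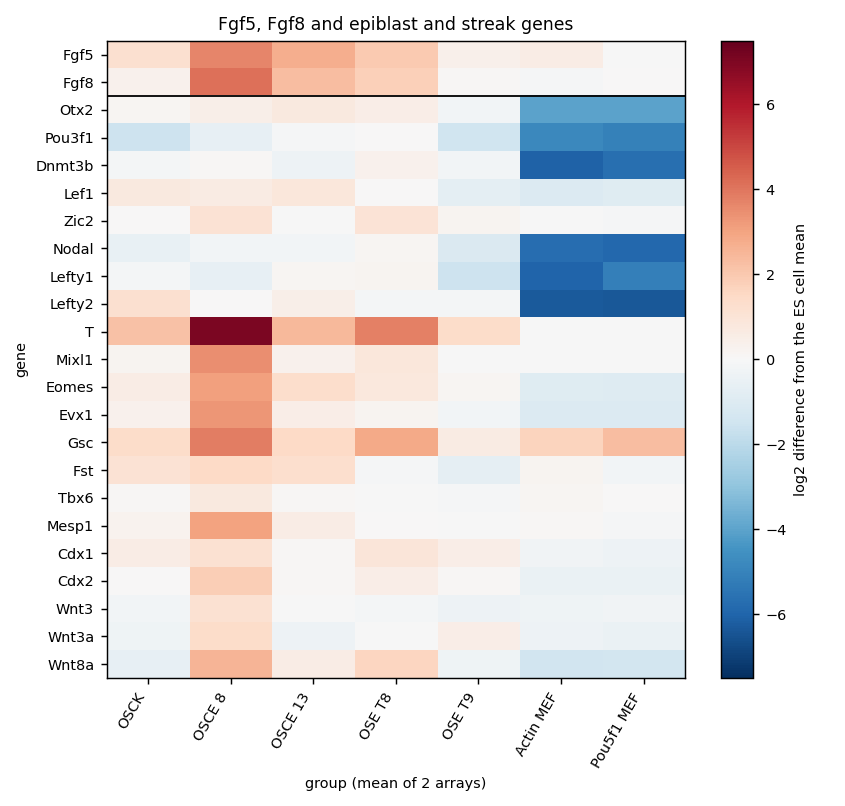
Log2 difference of each group mean (2 arrays, columns) from the ES cell mean for Fgf5, Fgf8 (above the line) and the 21 tested epiblast and streak genes (rows). T, Gsc, Mixl1, Evx1, Eomes and Mesp1 lie between 3.02 and 7.05 in the OSCE 8 column (T, Mixl1 and Mesp1 below background in ES cells), where Fgf5 lies at 3.69 and Fgf8 at 4.15, while Lefty1, Lefty2, Nodal and Dnmt3b are blue in MEFs.

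The genes most like each member were sought by the Pearson correlation of the 8 group means, over 5656 genes, for members whose means span at least 1 log2 unit. The points share arrays and slides, and the values are descriptions. Fgf4 was most like Pim3 (r = 0.993), Twf2 (0.991) and Smtnl2 (0.990). Fgf15 was most like Utp14a (r = 0.997), Rhpn2 (0.996) and Cdc34 (0.994), whose group means separate pluripotent cells from MEFs. Fgf5 was most like Foxq1 (r = 0.955), Pdlim3 (0.954) and Olfr887 (0.932), and Fgf8 was most like Pdlim3 (0.973), Prob1 (0.972) and Zfp36l3 (0.962). Pdlim3 thus appeared with both, at 6.49 in OSCE 8 and 4.61 in ES cells. Fgf17 was most like Ccdc166 (r = 0.957), Fgf10 most like Pvr (0.909), Fgfr1 most like Cacna2d1 (0.983) and Fgfr2 most like Usp11 (0.975).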

How the data were processed

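Per the labels, biotin-labelled cRNA from total RNA was hybridised to 16 arrays. The authors deposited a table of raw intensity per probe with bead numbers (an "other" value) and a detection score, a fraction from which the detection p was taken as its complement. Their normalized table has row names that could not be matched to probes, so it served as an alternative for counts of calls alone. Signal was corrected with normexp (offset 16) and quantile normalized, and probes above background on at least 2 arrays at a detection p under 0.01 were tested, 21551 in all. Beads per probe had a median of 37. limma 3.58.1 in R 4.3.3 fitted 8 group means to all arrays (8 residual degrees of freedom), with Benjamini-Hochberg adjustment at 0.05, tested on simulated data. Tables and figures used Python 3.11.15, pandas 2.3.3 and matplotlib 3.10.9. The number of arrays limits the precision.

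An "at least" fold is set against the higher of the dim probe's own signal and the lowest signal above background on each array. The members and the gene lists (further FGF genes, co-receptors, relay, targets, epiblast and streak, and markers of fibroblasts, pluripotent cells, primitive endoderm, macrophages and epithelium) were chosen with earlier results of these data known. All members were named. From each list the rule named up to 4 called genes with the largest difference between MEFs and ES cells and between Esrrb lines and ES cells, besides Fgfr3, Fgfr4, Fgf1 and Fgf9. For the likeness of patterns it named up to 3 genes a member. Genes of several probes used the brightest, members every probe. Alternatives were other background, scaling and filter settings, blocks for slide and replicate, and leaving out each array. A fit with 1 mean per line as the replicate was chosen after seeing the data. It takes its spread from the Esrrb lines and the MEF types, because ES cells and OSCK each enter as 1 mean. Deviations of same-numbered arrays correlated at 0.0932 to 0.410 over 28 pairs of groups, above 0.1 in 27. Pairing required this of every pair, so the fit has no block, and the values with blocks are given apart.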

Additional observations from a re-analysis of the deposited data

Results flagged for a closer look

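Member probes that differed between iPS lines, or between the MEF types, by a test of the difference itself are given here. Values are log2 differences from the limma fit with 2 arrays per line or MEF type. OSCE 8 minus OSCK differed at Fgf8 (3.82), Fgf5 (2.47), Fgf4 (-1.49), Fgf17 (-0.997), Fgf10 730458 (-0.95) and Fgfr2 6940377 (-0.53). OSE T8 minus OSE T9, which carry the same letters, differed at Fgf8 (1.66), Fgf5 (1.60), Fgf17 (-0.54) and Fgf10 730458 (-0.50). The OSE lines minus OSCE 13 differed at Fgf5 (-1.55), Fgf8 (-1.38), Fgf10 (-0.94 and -0.68), Fgfr2 (-0.93 and -0.76), Fgf15 (-0.70) and Fgf17 (0.70). Actin-GFP minus Pou5f1-GFP MEFs differed at Fgf10 (1.24 and 0.78) and Fgf5 (0.55). Groups of 2 arrays are too small for a check of single outlying arrays.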

How the results depend on the processing

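Of the values for single members under all alternatives, 4280 stayed on the same side of the threshold, 131 lost and 57 gained a call. No value called in the main fit or the alternative changed direction. Where neither fit called a value, its direction was not compared. With the fixed replicate block, and with slide as a random or fixed block, the count of called members in OSCK minus ES cells moved from 2 to 4, and under median scaling to 1. OSE T8 minus OSE T9 went from 2372 called probes to 1265 under median scaling and 3565 with slide as a fixed block, and from 4 called members to 2 under median scaling and without the filter. With 1 mean per line as the replicate, called probes went from 12784 to 6217 and members from 9 to 4 in MEFs minus ES cells, probes from 14660 to 9208 in Esrrb lines minus MEFs, probes from 4398 to 117 and members from 7 to 0 in Esrrb lines minus ES cells, and probes from 13009 to 6307 and members from 12 to 5 in OSCK minus MEFs. That fit has fewer replicates, and it measures the spread between lines or MEF types in place of the spread between replicate arrays. The share of each in the lower counts was not tested. Leaving out 1 array at a time, called probes ranged over 2584 to 4951 in Esrrb lines minus ES cells, 2485 to 4852 in 5 iPS lines minus ES cells, 2148 to 3741 in OSCK minus ES cells, 2484 to 4254 in OSCE 13 minus ES cells, 2697 to 4615 in OSE T8 minus ES cells, 2488 to 4398 in OSE T9 minus ES cells, 1382 to 2576 between the MEF types, 2044 to 3738 in OSCE 8 minus OSCK, 2133 to 4346 in OSE lines minus OSCE 13 and 1115 to 3164 in OSE T8 minus OSE T9. Called members ranged over 4 to 7 in Esrrb lines, 2 to 6 in 5 iPS lines, 1 to 3 in OSCK, 3 to 6 in OSCE 8 and 2 to 5 in OSE T9, each minus ES cells, and 2 to 4 in OSE T8 minus OSE T9. Fgf4, Fgf17, Fgfr1 and Fgf8 lie near the array background in some groups, where a level is only a bound.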
